A study of Rattus norvegicus with 15 samples.

Results

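Fatty acid desaturases and elongases were followed here as 8 genes, Scd, Scd2, Fads1, Fads2, Elovl1, Elovl2, Elovl5 and Elovl6, in rat liver. Their members were all probe sets whose platform gene symbol, current or former, was one of these names, and 13 of the 31099 probe sets on the array met this. Of these 13, 10 passed the filter on dim probe sets, and each of the 8 genes had at least 1 that passed, so all 8 entered the test among 9540 genes.

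The array was an Affymetrix 3′ expression array, on which 1 or several sets of short probes report a gene, and 15 liver samples were hybridised, 1 per array. All samples came from male Sprague Dawley rats from Charles River that were 7 weeks old at the start and ate a high fat diet with 59% of its energy from fat, so no group on another diet is available for comparison here. Each of 3 groups held 5 samples: vehicle (0.5% methylcellulose) and PF-04923503 at a low dose of 10 mg/kg or a high dose of 30 mg/kg, gavaged daily for 6 weeks. PF-04923503 is named in the study's title as an inhibitor of ACC, acetyl-CoA carboxylase, which makes the malonyl-CoA used both to build fatty acids and to lengthen them. The labels do not state that each sample came from a different rat, so the tests below measure spread between samples, which may or may not be spread between animals. The comparisons ask whether transcripts of desaturation and elongation differ between treated and vehicle livers, and whether the doses differ. Both doses are set against the same vehicle samples, so the comparisons with vehicle are not independent of each other.

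Fatty acid synthase ends mainly at palmitate, and desaturases and elongases of the endoplasmic reticulum make the other long chain fatty acids from it and from dietary fatty acids. Scd and Scd2 encode stearoyl-CoA desaturases, which place a double bond in the middle of saturated chains and give palmitoleate and oleate, and Scd is the main form of adult rodent liver. Fads1 and Fads2 encode the delta-5 and delta-6 desaturases, which act on the essential polyunsaturated fatty acids on the way to arachidonate and docosahexaenoate. Elongases add carbons donated by malonyl-CoA: Elovl6 acts on palmitate and palmitoleate, Elovl5 and Elovl2 act on polyunsaturated chains, and Elovl1 acts on saturated and monounsaturated very long chains. In liver many of these genes are known targets of SREBP-1c, which polyunsaturated fatty acids oppose.

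The upstream sequences of both desaturase pairs are shown because the members of each pair lie on the same chromosome and their values are set side by side below. Promoter sequences came from RefSeq on build GRCr8, in which 7 of the 8 members had an entry with 8 windows in all, and the 250 bases before each transcript start were read 5′ to 3′ on the gene's strand. The windows are chr1:253231732-253231981 on the minus strand for Scd, chr1:253118127-253118376 on the plus strand for Scd2, chr1:216252442-216252691 on the plus strand for Fads1 and chr1:216172034-216172283 on the minus strand for Fads2. Capitals mark matches to any of 4 motifs searched on both strands: the sterol regulatory element TCACNCCAC, the E-box CACGTG, the NF-Y box CCAAT and the GC box GGGCGG.
Scd: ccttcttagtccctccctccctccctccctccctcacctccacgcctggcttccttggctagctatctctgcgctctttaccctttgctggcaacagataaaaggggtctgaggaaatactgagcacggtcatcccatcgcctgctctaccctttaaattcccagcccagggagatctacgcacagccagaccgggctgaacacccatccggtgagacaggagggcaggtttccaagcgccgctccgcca
Scd2: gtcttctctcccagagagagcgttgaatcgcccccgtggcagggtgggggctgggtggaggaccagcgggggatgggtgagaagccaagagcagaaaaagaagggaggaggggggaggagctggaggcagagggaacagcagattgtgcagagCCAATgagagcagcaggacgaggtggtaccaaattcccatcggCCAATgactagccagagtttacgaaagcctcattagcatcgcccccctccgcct
Fads1: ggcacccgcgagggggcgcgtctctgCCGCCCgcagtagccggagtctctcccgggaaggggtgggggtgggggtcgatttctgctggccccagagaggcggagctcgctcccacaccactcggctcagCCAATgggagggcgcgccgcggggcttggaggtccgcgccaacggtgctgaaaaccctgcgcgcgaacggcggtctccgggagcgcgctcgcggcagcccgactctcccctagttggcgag
Fads2: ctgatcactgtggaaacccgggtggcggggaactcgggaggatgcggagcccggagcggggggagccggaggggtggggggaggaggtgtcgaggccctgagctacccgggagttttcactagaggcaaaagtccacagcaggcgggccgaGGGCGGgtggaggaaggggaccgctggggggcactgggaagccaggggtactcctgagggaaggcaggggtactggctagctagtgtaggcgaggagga
The Scd window held 0 matches to these letters. Scd2 held 2 CCAAT matches, which began 97 and 54 bases before the start. Fads1 held 1 CCAAT match 121 bases and 1 GC box on the opposite strand 224 bases before the start, and Fads2 held 1 GC box 99 bases before it. Among the others, the Elovl5 window held 1 E-box and 2 NF-Y boxes on the opposite strand, and the Elovl2 windows held 7 and 1 GC boxes. Among 33469 windows of that length, 0.974% held the sterol element, 5.59% the E-box, 34.0% the NF-Y box and 30.5% the GC box, and 0 of the 8 member windows held the sterol element. These matches describe letters in a window and nothing about binding. For Scd, Fads1 and Fads2, RefSeq places the outer end of the gene further upstream than this start, so the window overlaps the annotated gene. On the plus strand, the second Elovl2 window starts at base 23750333, before the first ends at 23750349. Most of that second window therefore lies past the first Elovl2 start.

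Scd had by far the highest difference among the members. Its log2 values in vehicle samples 1 to 5 were 6.82, 7.44, 8.94, 7.16 and 11.71. In the 10 mg/kg samples they were 12.16, 12.22, 12.61, 13.57 and 12.89, and in the 30 mg/kg samples 11.48, 14.14, 13.13, 11.84 and 10.77. All 5 samples at 10 mg/kg lay above all 5 of vehicle, whereas at 30 mg/kg samples 1 and 5 lay below vehicle sample 5, which stood far above the other 4 vehicle samples. The mean was 8.41 ± 2.01 in vehicle, 12.69 ± 0.57 at 10 mg/kg and 12.27 ± 1.35 at 30 mg/kg (SD, n = 5 each). With both doses combined, Scd rose 16.8-fold (95% confidence interval 5.90 to 47.7; limma, Benjamini-Hochberg adjusted p = 0.0361). The single doses did not pass the threshold of 0.05, with a 19.4-fold difference at 10 mg/kg (5.80 to 64.8; limma adjusted p = 0.0696) and a 14.5-fold difference at 30 mg/kg (4.34 to 48.5; limma adjusted p = 0.0979). By size of the log2 difference Scd ranked 2 of 9540 genes at 10 mg/kg and 1 at 30 mg/kg and for both doses. In whole liver, fewer cells of a type and less RNA per cell cannot be told apart.

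The spread of Scd between samples of 1 group was itself wide. The highest and lowest vehicle samples differed 29.6-fold, those at 10 mg/kg 2.65-fold and those at 30 mg/kg 10.3-fold. The SD of Scd was higher than that of 99.9% of the 9540 genes in vehicle, 98.7% at 10 mg/kg and 99.8% at 30 mg/kg, where the median SD of a gene was 0.12, 0.11 and 0.10. The combined call was kept in 5 of 15 fits that each left out 1 sample, with limma adjusted p-values up to 0.124. It also ended with limma's trend and robust options (adjusted p = 0.0552) and with array weights (adjusted p = 0.0538). Without vehicle sample 5, Scd was 34.3-fold higher at 10 mg/kg (limma adjusted p = 0.00708) and 25.7-fold higher at 30 mg/kg (limma adjusted p = 0.0159). Over the 15 fits Scd was called in 2 at 10 mg/kg and in 1 at 30 mg/kg, with limma adjusted p-values up to 0.171 and 0.230.

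Scd2, the paralogue better known from brain and from the liver of young animals, was the one member with lower means in treated samples. Its log2 values were 7.11, 7.42, 7.02, 7.26 and 7.11 in vehicle. They were 7.04, 6.63, 6.69, 7.28 and 6.86 at 10 mg/kg and 7.11, 7.22, 6.47, 7.20 and 7.15 at 30 mg/kg. The groups overlapped, though 3 of 5 samples at 10 mg/kg and 1 of 5 at 30 mg/kg lay below all vehicle samples. Sample 3 at 30 mg/kg was the lowest of all 15. The low dose gave a log2 difference from vehicle of -0.28 (limma adjusted p = 0.423) and the high dose one of -0.15 (limma adjusted p = 0.636). For both doses the ratio to vehicle was 0.860, with a 95% confidence interval of 0.711 to 1.04, which includes both no difference and a fall of that lower size. The 3 other probe sets of Scd2 lay below the filter threshold of 6.10 on all 15 arrays, with group means between 3.69 and 4.73, and gave no level.

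**Figure D1:**
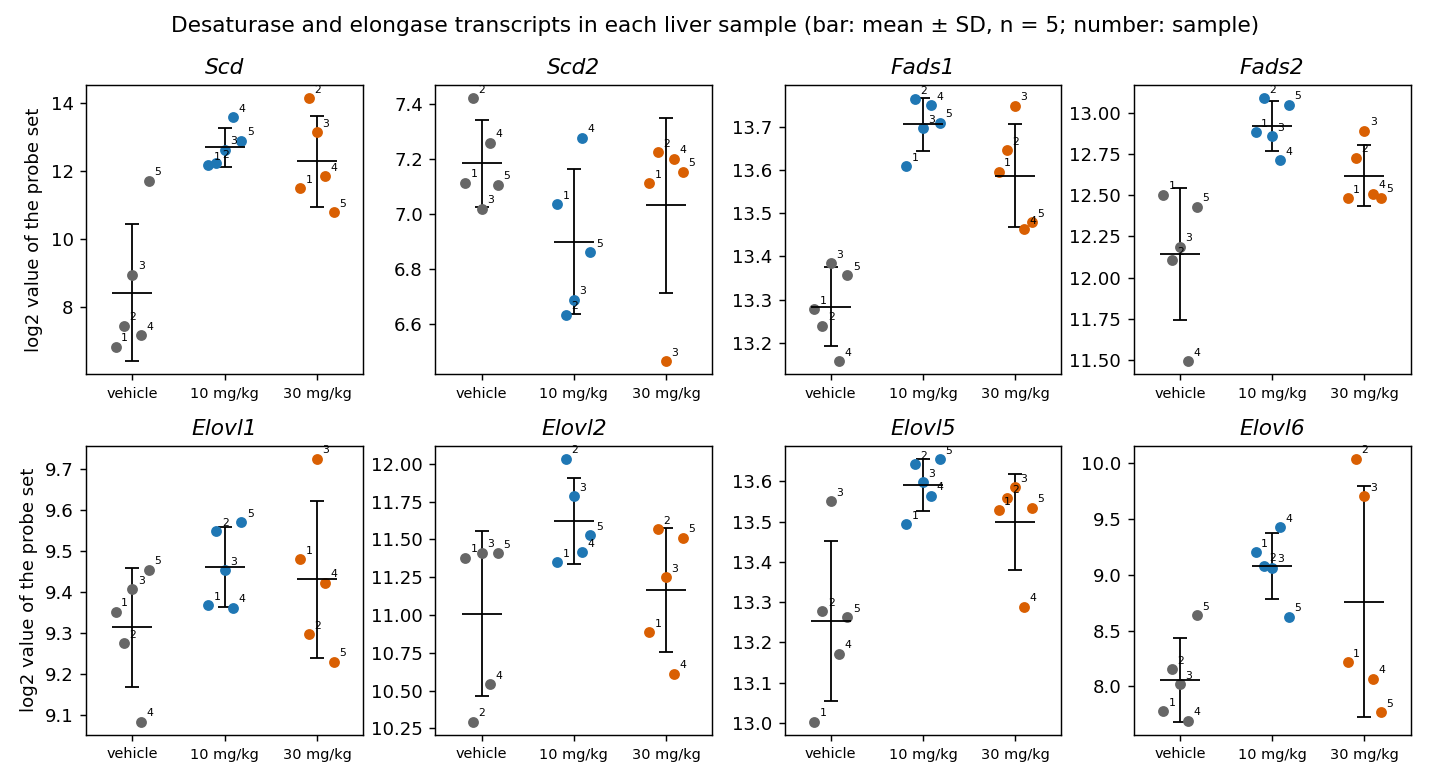
Log2 values (vertical axes, a separate scale for each gene) of the probe set that stood for each of the 8 genes, in vehicle, 10 mg/kg and 30 mg/kg samples (horizontal axis); each point is 1 of 5 samples with its number, and bars are mean ± SD. All 10 treated samples lay above all 5 vehicle samples in Fads1, whereas vehicle sample 5 of Scd, at 11.71, lay above samples 1 and 5 of 30 mg/kg.

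Fads1 and Fads2, which act in series on polyunsaturated chains, both had higher means in treated samples, by much smaller folds than Scd and with less spread. Fads1 log2 values in vehicle were 13.28, 13.24, 13.38, 13.16 and 13.36. They were 13.61, 13.76, 13.70, 13.75 and 13.71 at 10 mg/kg and 13.60, 13.65, 13.75, 13.46 and 13.48 at 30 mg/kg. All 10 treated samples lay above all 5 vehicle samples. Fads1 rose 1.34-fold at 10 mg/kg (1.22 to 1.47; limma adjusted p = 0.0427) and 1.29-fold for both doses together (1.19 to 1.39; limma adjusted p = 0.0205, and no gene had a lower one there). At 30 mg/kg it was 1.23-fold that of vehicle (1.13 to 1.35) and did not pass (limma adjusted p = 0.0979). Leaving out 1 sample at a time, Fads1 was called for both doses in 11 of 15 fits. At 10 mg/kg it was called in 7 of 15. That call was lost in the 8 fits without one of vehicle samples 1, 2 and 4, of 10 mg/kg samples 2 to 5, or the first sample at 30 mg/kg. Limma adjusted p-values then reached 0.139, while the log2 difference stayed between 0.39 and 0.45 in all 15 fits. In a fit of all 31042 probe sets with no filter, chosen after the data were seen, the 10 mg/kg call also ended (limma adjusted p = 0.0607).

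For Fads2 the log2 values were 12.50, 12.10, 12.19, 11.49 and 12.43 in vehicle. At 10 mg/kg they were 12.88, 13.09, 12.86, 12.71 and 13.05, and at 30 mg/kg 12.48, 12.73, 12.89, 12.51 and 12.48. The 10 mg/kg samples lay above all vehicle samples, while samples 1 and 5 at 30 mg/kg lay just below vehicle sample 1. The difference was 1.71-fold at 10 mg/kg (1.36 to 2.15; limma adjusted p = 0.0740), 1.39-fold at 30 mg/kg (1.10 to 1.75; limma adjusted p = 0.193) and 1.54-fold for both doses (1.26 to 1.88; limma adjusted p = 0.0690). Fads2 was called for both doses only without vehicle sample 5 among the fits that left out a sample (1.62-fold; limma adjusted p = 0.0402).

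Elovl6, the elongase that turns palmitate into stearate, followed Scd in the size of its difference. Its log2 values were 7.78, 8.15, 8.02, 7.69 and 8.64 in vehicle. They were 9.20, 9.08, 9.06, 9.42 and 8.63 at 10 mg/kg and 8.21, 10.04, 9.70, 8.07 and 7.77 at 30 mg/kg. At 10 mg/kg 4 of 5 samples lay above every vehicle sample, while at 30 mg/kg only samples 2 and 3 did. The difference was 2.03-fold at 10 mg/kg (1.17 to 3.52; limma adjusted p = 0.276) and 1.63-fold at 30 mg/kg (0.935 to 2.82; limma adjusted p = 0.369), and neither passed. Its second probe set gave log2 differences of 1.33 at 10 mg/kg and 0.87 at 30 mg/kg, and in that one only 2 of 5 vehicle samples lay above the filter threshold.

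Elovl5, which lengthens 18-carbon polyunsaturated chains, had log2 values of 13.00, 13.28, 13.55, 13.17 and 13.26 in vehicle. At 10 mg/kg these were 13.49, 13.64, 13.60, 13.56 and 13.66, and at 30 mg/kg 13.53, 13.56, 13.58, 13.29 and 13.53. Vehicle sample 3 reached the treated samples and the other 4 vehicle samples lay below all treated ones. The difference was 1.26-fold at 10 mg/kg (1.12 to 1.43; limma adjusted p = 0.134) and 1.19-fold at 30 mg/kg (1.05 to 1.34; limma adjusted p = 0.206). For both doses it was 1.22-fold (1.10 to 1.36; limma adjusted p = 0.0964). The second probe set of Elovl5 gave log2 differences of 0.49 at 10 mg/kg and 0.44 at 30 mg/kg. Among the fits that left out a sample, Elovl5 was called only without vehicle sample 3, at 10 mg/kg and for both doses (limma adjusted p = 0.0486 and 0.0475).

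Elovl2, which acts on longer polyunsaturated chains on the way to docosahexaenoate, varied more. In vehicle its log2 values were 11.38, 10.29, 11.41, 10.54 and 11.41. At 10 mg/kg they were 11.35, 12.03, 11.78, 11.41 and 11.53, and at 30 mg/kg 10.89, 11.57, 11.25, 10.61 and 11.51. Vehicle samples 2 and 4 were low, and the other 3 lay within the range of the treated samples. The ratio to vehicle was 1.53 at 10 mg/kg (1.07 to 2.19; limma adjusted p = 0.314) and 1.12 at 30 mg/kg (0.778 to 1.60; limma adjusted p = 0.790). Without vehicle sample 2 the log2 difference at 30 mg/kg turned from 0.16 to -0.02.

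Elovl1, the elongase of saturated very long chains used in sphingolipids, had means of 9.31 ± 0.15 in vehicle, 9.46 ± 0.10 at 10 mg/kg and 9.43 ± 0.19 at 30 mg/kg (SD, n = 5 each). Its vehicle samples ran from 9.08 to 9.45, and the treated samples from 9.23 to 9.72, so the groups overlapped broadly. For both doses the ratio to vehicle was 1.10, with an interval of 0.975 to 1.23 (limma adjusted p = 0.401).

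**Figure D2:**
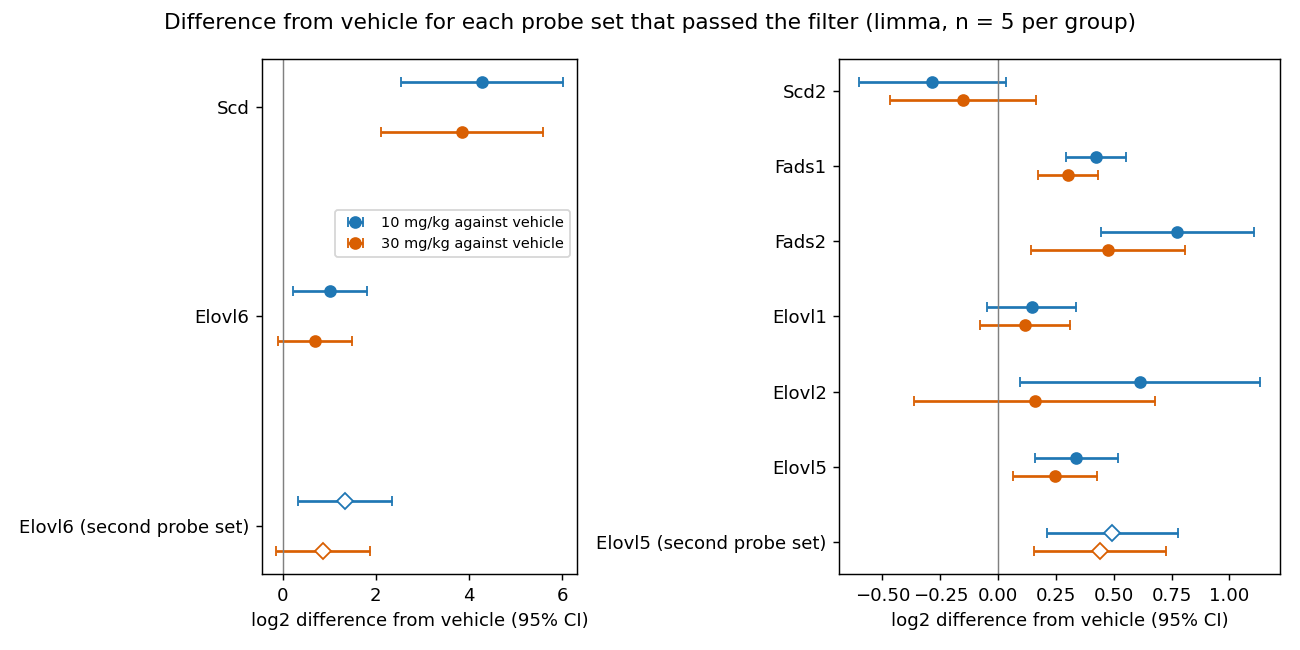
Log2 difference from vehicle (horizontal axis) with its 95% confidence interval from limma for each of the 10 probe sets that passed the filter (vertical axis), at 10 mg/kg and 30 mg/kg with 5 samples per group; open diamonds are second probe sets and the panels have different scales. Scd stands at 4.28 and 3.86, Elovl6 at 1.02 and 0.70, and Scd2 alone lies below 0.

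Counted over the 8 genes, 1 was called higher at 10 mg/kg (Fads1), where 0.0629% of the 9540 genes were, 0 at 30 mg/kg, where 0% were, and 2 for both doses (Scd and Fads1), where 0.0839% were. None was called lower by limma. At an unadjusted p under 0.05, 6 members were higher at 10 mg/kg, against 4.49% of all genes, 4 at 30 mg/kg, against 5.27%, and 5 for both doses, against 5.3%. In the lower direction there were 0 members, against 8.79%, 10.8% and 12.4% of all genes in the same order. The treated samples lay wholly above vehicle in 3 members at 10 mg/kg (Scd, Fads1 and Fads2), against 0.975% of all genes. This held for 1 member at 30 mg/kg (Fads1), against 0.849%, and for 1 with all 10 treated samples (Fads1), against 0.157%. In mean, 7 of 8 members were higher in each comparison with vehicle, against 41.8% of all genes at 10 mg/kg, 38% at 30 mg/kg and 39.7% for both doses. The members had a median log2 difference of 0.52 at the low and 0.27 at the high dose, beside -0.02 and -0.03 for all genes.

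No member passed the test between the doses. In 7 members the mean was highest at 10 mg/kg, then 30 mg/kg, then vehicle, and in Scd2 the order ran the other way, with vehicle highest and 10 mg/kg lowest. Set against 10 mg/kg, 1 of 8 members had a higher mean at 30 mg/kg, against 45.6% of all genes. The members called between doses numbered 0, as for 0% of the genes, and at an unadjusted p under 0.05 limma also gave 0 members. Fads1 was nearest, with a log2 difference between doses of -0.12 (limma adjusted p = 0.851). For Scd the 30 mg/kg level was 0.749 of the 10 mg/kg level, with an interval of 0.224 to 2.50, so a difference of 2-fold in either direction between the doses was within the error.

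Differences between related enzymes in how far they moved were tested within each sample, as the log2 value of 1 gene less that of the other, in 4 pairs at 2 doses by a two-sided exact permutation test of 5 against 5 samples with adjustment over the 8 tests. Such an exact test cannot go below p = 0.00794. Scd moved more than Scd2 by 4.56 on the log2 scale at 10 mg/kg (exact p = 0.00794, adjusted 0.0635) and by 4.01 at 30 mg/kg (exact p = 0.0238, adjusted 0.0635). Elovl6 moved more than Elovl5 by 0.68 at 10 mg/kg (exact p = 0.0159, adjusted 0.0635) and by 0.45 at 30 mg/kg (exact p = 0.357, adjusted 0.408). The Fads1 difference less that of Fads2 gave -0.35 and -0.17 at the low and the high dose (exact p = 0.0556 and 0.333, adjusted 0.111 and 0.408). Elovl5 less Elovl2 gave -0.28 and 0.09 (exact p = 0.325 and 0.754, adjusted 0.408 and 0.754). None of the 8 passed after adjustment. Without vehicle sample 5 the Scd and Scd2 pair gave 5.40 and 4.85 (adjusted exact p = 0.0317 for both) and the Elovl6 and Elovl5 pair 0.82 at 10 mg/kg (adjusted exact p = 0.0423). That sample was the highest of vehicle in Scd and in Elovl6, so leaving it out widens these differences. In each of these tests it was the 1 called fit of 10 that left out a sample. Adjusted exact p-values in the others reached 0.0952, 0.106 and 0.106 in the same order.

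Over the samples in vehicle and at 30 mg/kg, Scd and Elovl6 tended to go up and down together, and both tended to follow the fatty acid synthase transcript Fasn. At 10 mg/kg Elovl6 did so less closely, with a Pearson r of 0.228 with Scd and 0.479 with Fasn. Scd with Fasn gave 0.902 there. Vehicle sample 5, the highest vehicle sample in all of them, stood 3.30 above the vehicle mean in Scd, 0.58 in Elovl6 and 1.10 in Fasn on the log2 scale. The other vehicle samples were less regular: from sample 2 to sample 3 Scd went from 7.44 to 8.94 and Elovl6 from 8.15 to 8.02. Sample 2 at 30 mg/kg stood 5.72, 1.98 and 2.57 above the vehicle mean, and sample 3 stood 4.72, 1.64 and 1.73 above it. Sample 5 at 30 mg/kg, the lowest treated sample in Scd, differed from it by 2.36 in Scd, -0.29 in Elovl6 and 0.28 in Fasn. The treated samples at 30 mg/kg thus spanned nearly the whole range from vehicle to the highest levels seen in Elovl6.

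**Figure D3:**
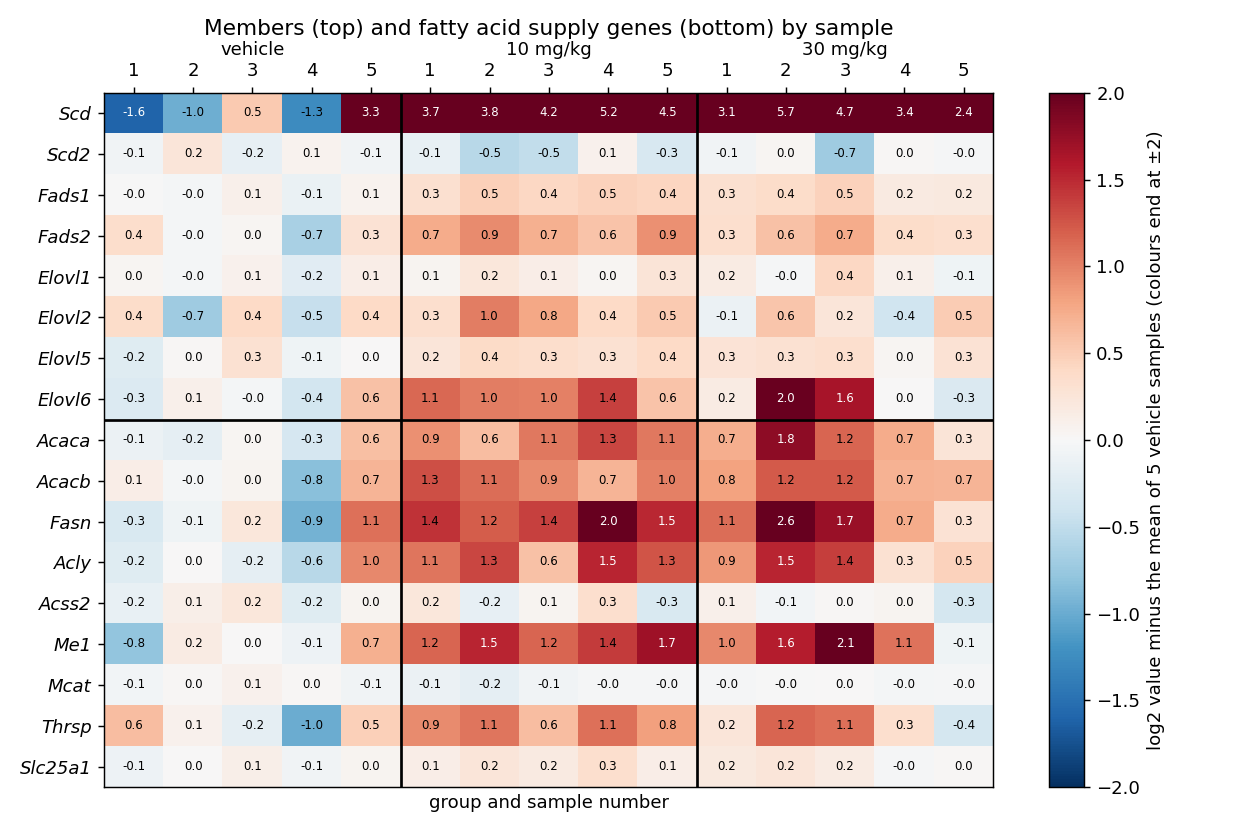
Log2 value minus the mean of the 5 vehicle samples (colour, cut at 2 in either direction, with the value printed in each cell) for the 8 genes above the line and 9 fatty acid supply genes below it (rows), in each sample by group and number (columns). Vehicle sample 5 stood 3.30 above the vehicle mean in Scd. Within the 30 mg/kg group, samples 2 and 3 were the highest in Scd, Elovl6 and Fasn. Acss2 and Mcat showed little colour in any group, while Scd2 went down to -0.72 in 30 mg/kg sample 3.

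After each group mean was subtracted, Scd and Elovl6 correlated over the 15 arrays at Pearson r = 0.729 (Spearman rho 0.646), and at 0.648 without the 2 samples farthest from the median of Scd. Within groups of 5 the r was 0.899 in vehicle, 0.228 at 10 mg/kg and 0.969 at 30 mg/kg. These values describe arrays that share their normalisation, and no p is attached. Of the 21 pairs of members without Scd2, 21 had an r above 0, and of the 7 pairs with Scd2, 7 had an r below 0, down to -0.751 with Elovl1. These signs did not hold everywhere. Without the 2 farthest samples, 20 of the 21 and 6 of the 7 kept them, the exceptions being Elovl1 with Elovl6 at -0.040 and Scd2 with Elovl6 at 0.142. Within 10 mg/kg only 14 of the 21 were above 0 and 5 of the 7 below it, with -0.837 for Elovl1 and Elovl6 and 0.647 for Scd and Scd2. By the same measure, ranked over 9532 other genes, Fasn at 0.898, Cisd1, which encodes an iron-sulphur protein of the mitochondrial outer membrane, at 0.891 and Pnpla3, which encodes a lipid droplet protein, at 0.890 were most like Scd. Most like Elovl6 were Pnpla3 at 0.911, Pgd, an NADPH-producing enzyme of the pentose phosphate pathway, at 0.908 and Fasn at 0.866. Most like Fads1 were Dbi, which encodes the acyl-CoA binding protein, at 0.908, Necap1 at 0.861 and Abhd1 at 0.859. Most like Fads2 were Pctp, a phosphatidylcholine transfer protein, at 0.918, Ghr, the growth hormone receptor, at 0.911 and Acacb at 0.875.

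**Figure D4:**
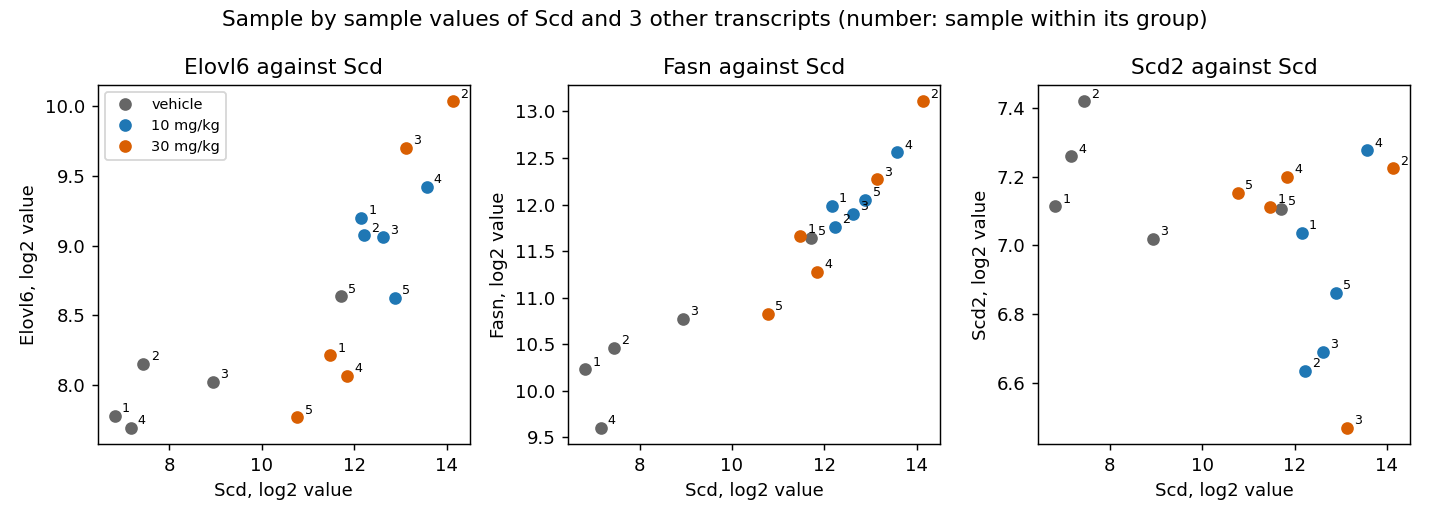
Log2 values of Elovl6, Fasn and Scd2 (vertical axes) against Scd (horizontal axes) in the 15 samples, coloured by group and numbered within it. Elovl6 and Fasn rise along Scd within vehicle and within 30 mg/kg (r = 0.899 and 0.969 for Elovl6, and 0.228 at 10 mg/kg). Scd2 shows no such slope in those groups, with r = -0.437 in vehicle and -0.257 at 30 mg/kg, but 0.647 at 10 mg/kg. Over 15 arrays after group means were subtracted, r was -0.138 for Scd2.

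The remaining genes of the pathway were read from lists, in which limma called 0 genes in every comparison. Of 6 other desaturases, 1 was tested: Degs1, which makes the double bond of ceramide, differed by -0.10 on the log2 scale at both doses (limma adjusted p = 0.496 for both doses together). Fads3 and Degs2 lay below the filter threshold on all 15 arrays, as did Elovl3, the 1 of 3 other elongases on the array. Partners of the elongation cycle, which reduce and dehydrate each added unit, had 4 of 7 tested, with median log2 differences of -0.04 at 10 mg/kg and -0.07 at 30 mg/kg. Among them Hacd3, a dehydratase, had log2 differences of 0.27 and 0.12, with an adjusted p of 0.312 for both doses (limma), and Hsd17b12, the 3-ketoacyl-CoA reductase, had -0.07 and -0.08 (limma adjusted p = 0.463). At a limma unadjusted p under 0.05, 1 of the 4 partners was higher at 10 mg/kg, against 4.49% of all genes, and 0 at 30 mg/kg, against 5.27%. Cytochrome b5 and its reductases, which pass electrons to all the desaturases, had 4 of 6 tested, with medians of 0.05 and 0.04. Cyb5b, the outer mitochondrial form, was at 0.13 and 0.15 (limma adjusted p = 0.349 for both doses) and Cyb5r4, a reductase, at -0.02 and -0.14 (limma adjusted p = 0.392). Elongation and electron supply were therefore not called in either direction. At 30 mg/kg 1 of the 4 electron supply genes was lower at a limma unadjusted p under 0.05, against 10.8% of all genes. Lists of 4 genes are too short to read a single such gene as a result about the list.

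The list of genes that supply fatty acids to the desaturases stood apart in its medians, at 0.99 on the log2 scale at 10 mg/kg and 0.91 at 30 mg/kg, beside -0.02 and -0.03 for all genes. This list overlaps with results already known from these samples and is no independent evidence. All 9 were tested, and 7, 5 and 7 were higher at an unadjusted p under 0.05 at 10 mg/kg, at 30 mg/kg and for both doses, where 4.49%, 5.27% and 5.3% of all genes were, with 0 lower. Acacb and Acaca, both forms of acetyl-CoA carboxylase, had ratios to vehicle of 1.96 (1.48 to 2.58; limma adjusted p = 0.0525) and 1.95 (1.44 to 2.65; limma adjusted p = 0.0690) for both doses. Lipogenic regulators had all 18 tested, with medians of 0.05 and 0.02. For both doses, 3 of them were higher and 2 lower at an unadjusted p under 0.05, where 5.3% and 12.4% of all genes were. Insig1, which holds back SREBP processing, had a ratio of 1.49 to vehicle (1.06 to 2.10; limma adjusted p = 0.216), and Pparg, a lipogenic nuclear receptor, one of 0.768 (0.617 to 0.955; limma adjusted p = 0.204). Srebf1, which encodes SREBP-1, was added after its values were seen and had log2 differences of 0.31 at 10 mg/kg and 0.01 at 30 mg/kg (limma adjusted p = 0.522 and 0.979).

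Genes that use the products had medians nearer 0. Of 14 enzymes that activate acyl chains or attach them to lipids, ceramide synthases among them, 12 were tested, with medians of 0.11 and 0.03. At an unadjusted p under 0.05 by limma, 3 were higher at 10 mg/kg, 3 at 30 mg/kg and 2 for both doses. Of all genes, 4.49%, 5.27% and 5.3% were higher in the same order. Acsl5, an acyl-CoA synthetase, was at 1.54-fold of vehicle for both doses (1.25 to 1.88; limma adjusted p = 0.0749). Lpcat3, which places polyunsaturated chains in phospholipids, was at 1.22-fold (1.07 to 1.39; limma adjusted p = 0.155). Of 8 genes of peroxisomal chain shortening, the step that completes docosahexaenoate synthesis, 4 were tested, with medians of 0.14 and 0.03. Abcd3, a peroxisomal transporter, was at 1.14-fold (limma adjusted p = 0.304) and Scp2 at 1.03-fold (limma adjusted p = 0.546). At a limma unadjusted p under 0.05, 1 of the 4 was higher at 10 mg/kg, against 4.49% of all genes, and 0 at 30 mg/kg, against 5.27%.

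The tissue label was checked against marker lists, in which limma called 0 genes. All 9 hepatocyte markers were measured, with median log2 differences of 0.02 at 10 mg/kg and 0.01 at 30 mg/kg, and their summed level lay between 17.66 and 17.73 in all 15 samples. That sum is carried by the brightest of them, such as Alb at 15.36 in vehicle, where the highest value of any probe set was 15.38, so it says little about the amount of hepatocyte RNA. Among the others, Cps1, of the urea cycle, was at 1.08-fold of vehicle for both doses (limma unadjusted p = 0.00944, adjusted p = 0.170), and Tat, of tyrosine breakdown, was at 1.09-fold (limma adjusted p = 0.745). All 8 measured Kupffer cell and macrophage markers had lower means at both doses, with medians of -0.39 and -0.34, and 7 were lower at an unadjusted p under 0.05 for both doses, where 12.4% of all genes were. Their summed level ran from 12.40 to 12.95 in vehicle, 11.98 to 12.66 at 10 mg/kg and 11.88 to 12.92 at 30 mg/kg. All 7 endothelial markers also had lower means at both doses, with medians of -0.23 and -0.19. The 7 tested stellate cell and fibroblast markers had lower means at 10 mg/kg, with a median of -0.19. At 30 mg/kg 4 of these 7 were lower and 3 higher, with a median of -0.11, while Dcn and Lum lay below the filter threshold. Lower means were also the commoner direction over all genes, of which 41.8% at 10 mg/kg and 38% at 30 mg/kg were higher in mean. The 3 blood markers had medians of -0.41 and -0.22. Whether these shifts have a part in the members' values, Scd2 included, was not tested. Of 6 adipocyte markers, Adipoq, Fabp4, Lep and Plin1 had medians over all 15 samples below the filter threshold. The other 2 had lower means in treated samples: Cfd went from 8.06 in vehicle to 7.77 at 10 mg/kg and 7.82 at 30 mg/kg (limma adjusted p = 0.398 for both doses), and Cidec, which hepatocytes also express, from 10.01 to 9.89 and 9.87 (limma adjusted p = 0.486). Among 3 nerve markers on the array, Gfap and Pmp22 had medians over all 15 samples below the threshold, though Pmp22 passed the filter. The third, Mbp, averaged 6.98 in vehicle, 7.40 at 10 mg/kg and 7.26 at 30 mg/kg (limma adjusted p = 0.324 for both doses).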

How the data were processed

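The 15 samples were grouped by their titles. The deposited values are log2 values that the authors had summarised per probe set and normalised. Per the submitters' processing notes, the tools were RMA, GCRMA 2.12.1 and limma 2.14.7. Whether RMA or GCRMA made the deposited table is not given here. Such normalisation hides a change shared by most genes. No depth applies to arrays, and their number limits the precision. Pairwise correlations lay between 0.989 and 0.996, and 0 pairs were identical. No batch information was used here.

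Control probe sets were left out. A probe set was kept when at least 5 of 15 values exceeded 6.10, the median over all arrays, and the brightest kept one with 1 symbol stood for its gene, which gave 9540 genes. Group means of all 15 arrays were fitted with limma 3.58.1 (eBayes without trend or robust options) in R 4.3.3, with Benjamini-Hochberg adjustment over all genes and a call under 0.05. Pair tests were exact permutation tests in Python 3.11.15. Both procedures were tested on simulated data. Gene symbols came from the platform annotation, and 20758 of 20826 single symbols had a current RefSeq entry.

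Named genes were the 8 members, called list genes or else the 2 with the smallest p for both doses, and the 3 genes most correlated with Scd, Fads1, Fads2 and Elovl6. The members and lists were chosen with earlier results of these data known. Alternatives were other filters, probe set rules, normalisations, limma options, the replicate number as a block, only the groups compared, each sample left out and, added later, all probe sets with no filter.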

Additional observations from a re-analysis of the deposited data

Results flagged for a closer look

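Dixon's ratio, the gap of an end sample to its nearest neighbour divided by the range of the 5 values, was read in 24 groups, 8 members in 3 groups. In 2 of them it exceeded the 95% critical value of 0.71 for 5 samples, at 0.851 for Scd2 and 0.810 for Elovl5, and chance gives about 1 in 20. Scd2 in 30 mg/kg sample 3 was at a log2 value of 6.47, below the other 4 samples of its group, which ran from 7.11 to 7.22. Elovl5 in 30 mg/kg sample 4 was at 13.29, below the other 4, which ran from 13.53 to 13.58. Different samples were involved, and no other member stood out in the same way in either.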

How the results depend on the processing

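The count of members called at 10 mg/kg was 1 (Fads1) under each filter, probe set rule and normalisation changed alone. It was 0 for all probe sets with no filter, added after seeing the data (Fads1, limma adjusted p = 0.0607), and 0 with the replicate number as a block (Fads1, 0.0763). Leaving out single samples gave 0 to 2 at 10 mg/kg, 0 to 1 at 30 mg/kg and 0 to 3 for both doses. For both doses the count fell from 2 to 1 with trend and robust options (Scd, limma adjusted p = 0.0552) and to 1 with array weights (Scd, 0.0538), and to 0 with the replicate block (Fads1, 0.0608; Scd, 0.0838). Correlations of same-numbered samples, after group means were subtracted, ran from -0.0706 to 0.195. Differently numbered samples were not set beside them, so whether replicate numbers pair the samples was not tested. The log2 difference of Elovl1 between the doses turned to 0.0055 under quantile normalisation and ranged from -0.103 to 0.0207 with single samples left out. That of Elovl2 at 30 mg/kg ranged from -0.021 to 0.296. Pair differences ranged from 4.18 to 5.40 and 3.59 to 4.85 for Scd less Scd2, from 0.589 to 0.825 and 0.150 to 0.711 for Elovl6 less Elovl5, from -0.444 to -0.221 and -0.263 to -0.041 for Fads1 less Fads2, and from -0.431 to -0.091 and -0.067 to 0.273 for Elovl5 less Elovl2, at 10 and 30 mg/kg. The causes were not tested. All genes called at 10 mg/kg numbered 10, against 3 without a filter, 16 with all probe sets and 0 with the block. For both doses they numbered 14, against 22 with a stricter filter, 25 with all probe sets, 7 with array weights and 3 with the block. Leaving out single samples gave from 0 genes (without 10 mg/kg sample 3) to 85 (without vehicle sample 5), with 1 without vehicle sample 1 or 4. Dim probe sets, such as 3 of the 4 of Scd2, gave no usable level.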
